A study of Mus musculus with 9 samples.

Results

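The G2 and mitosis genes examined here were 46 genes whose products act in late cell cycle or in division itself. They were taken by gene symbol from a table of 35275 genes. Each of the 46 was found once, and all 46 passed the filter on low counts that left 13082 genes for testing. The data were read counts from poly-T-selected RNA of mouse embryonic fibroblasts (MEFs), connective tissue cells from embryos, of the C57Bl/6 strain. MEFs at about 80% confluence in DMEM with 10% fetal bovine serum were kept in iso-osmolar medium as control, or were moved for 3 h to the same medium with sucrose added, at 200 mM (500 mOsm, low-intensity hyperosmotic stress) or at 300 mM (600 mOsm, high-intensity hyperosmotic stress). Sucrose draws water out of cells and does not readily enter them. Each condition had 3 libraries, numbered 1 to 3, and the comparisons asked which transcripts differed with the intensity of the stress. The labels do not say whether the 3 libraries of a condition came from separate cultures, so p-values measure the spread between these libraries, which may be technical. The labels name no transgene or deletion, so the groups differ in the medium alone as labelled.

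Entry into mitosis is driven by Cdk1 bound to B-type cyclins. Wee1-family kinases hold this complex inactive and Cdc25 phosphatases release it. Plk1 and the Aurora kinases then build the spindle, the checkpoint proteins Bub1, Bub1b, Bub3, Mad2l1 and Ttk delay anaphase until chromosomes are attached, and the anaphase-promoting complex (APC/C) ends mitosis by marking cyclins and securin for destruction. Many of these genes are transcribed together late in the cycle, and in their promoters a short element called the cell cycle genes homology region (CHR) recruits the MuvB core complex with B-Myb and Foxm1, often near CCAAT boxes that bind NF-Y.

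Promoter sequence from RefSeq (build GRCm38.p6) was matched to 38 of the 46 genes. The missing entries were Ccna2, Cdc25c, Aurkb, Incenp, Kif20a, Tpx2, Dlgap5 and Foxm1. In windows of 300 bases, from 250 before to 50 after each annotated start, the CHR core letters TTTGAA or TTCGAA occurred on either strand in 30 of 38 members (78.9%), against 1486 of 9290 tested genes with a promoter (16.0%) and 5854 of 27025 genes in the whole promoter table (21.7%). The letters CCAAT, again on either strand, occurred in 30 of 38 members (78.9%) and in 42.9% of the tested genes. Both motifs stood in 26 of 38 members (68.4%) and in 6.66% of the tested genes. The CHR letters lay within 50 bases of the start in 27 of 38 members (71.1%) and in 4.38% of the tested genes. TTCGAA is its own reverse complement and was counted once, and a CHR match can share a base with a CCAAT match.

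The windows below, each the 100 bases before an annotated start written 5′ to 3′ on the gene's strand, are shown for genes that stand for the patterns that follow. Ccnf fell at 500 mOsm, Cdk1 and Cdc20 were higher at 600 mOsm than in both other conditions, Espl1, Ube2c, Kif11, Plk1 and Nusap1 were higher at both intensities, and Nek2 was highest at 500 mOsm. The choice over-represents CHR letters, which lie before the start in 10 of the members' 41 windows of 100 bases and in 6 of the 9 shown. Capitals mark the CHR core letters and CCAAT, or their reverse complements.
Ccnf, chr17:24251410-24251509, minus strand: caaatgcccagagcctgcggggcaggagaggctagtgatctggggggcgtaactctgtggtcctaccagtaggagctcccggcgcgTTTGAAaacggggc
Cdk1, chr10:69352913-69353012, minus strand: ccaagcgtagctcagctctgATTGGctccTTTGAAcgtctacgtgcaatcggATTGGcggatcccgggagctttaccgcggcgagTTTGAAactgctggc
Cdc20, chr4:118437344-118437443, minus strand: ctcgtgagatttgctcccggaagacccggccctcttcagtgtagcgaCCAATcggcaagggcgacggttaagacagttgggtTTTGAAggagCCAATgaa
Espl1, chr15:102296193-102296292, plus strand: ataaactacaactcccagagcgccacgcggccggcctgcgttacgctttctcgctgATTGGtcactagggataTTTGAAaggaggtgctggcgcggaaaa
Ube2c, chr2:164769829-164769928, plus strand: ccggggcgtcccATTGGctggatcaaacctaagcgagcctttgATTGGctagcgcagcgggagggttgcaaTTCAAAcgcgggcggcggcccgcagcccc
Kif11, chr19:37376282-37376381, plus strand: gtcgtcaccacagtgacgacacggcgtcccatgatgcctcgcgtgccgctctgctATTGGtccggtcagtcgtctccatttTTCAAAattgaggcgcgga
Plk1, chr7:122159335-122159434, plus strand: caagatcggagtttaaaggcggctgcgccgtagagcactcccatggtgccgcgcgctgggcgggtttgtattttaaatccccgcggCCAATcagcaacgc
Nusap1, chr2:119618198-119618297, plus strand: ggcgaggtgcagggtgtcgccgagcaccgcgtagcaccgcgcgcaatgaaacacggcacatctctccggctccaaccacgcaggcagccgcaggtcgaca
Nek2, chr1:191821373-191821472, plus strand: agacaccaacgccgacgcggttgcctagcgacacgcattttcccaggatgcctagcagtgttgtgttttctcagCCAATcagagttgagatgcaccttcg
In the 300 bases the CHR letters began at positions -130 and -14 from the start in Ccnf, the first outside the window shown. They began at -71 and -15 in Cdk1, at -18 in Cdc20, at -27 in Espl1, at -29 in Ube2c, at -19 in Kif11 and, after the start, at 31 in Plk1. The 300 bases of Nusap1 held no CHR letters, and those of Nek2 held none and CCAAT at -26 and 8. A match of letters is a description of the sequence, and binding of any factor was not measured. The 30 members with CHR letters and the 8 without (Ccnb1, Nek2, Mad2l1, Birc5, Cenpe, Nusap1, Fzr1 and Pttg1) both held genes that rose at 500 mOsm, 14 and 4 of them. Their median log2 fold changes there were 0.29 and 0.25. At 600 mOsm 20 of the 30 and 3 of the 8 rose, with medians of 0.42 and 0.24. Of the 8 members without a promoter entry, 6 rose at 500 mOsm and 4 at 600 mOsm, with medians of 0.25 and 0.21. Among all genes tested, 13.2% were called as higher at 500 mOsm and 15.1% at 600 mOsm. Whether the letters go with the rise was not tested.

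**Figure D1:**
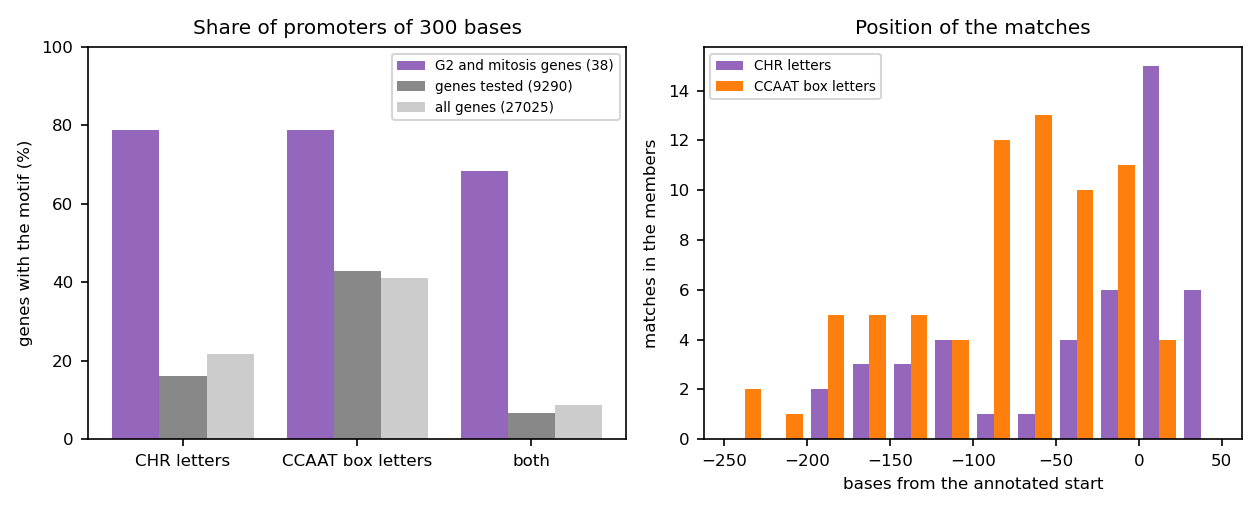
Left, the percent of genes whose promoter of 300 bases holds the CHR core letters, CCAAT or both, for 38 G2 and mitosis genes, 9290 tested genes and 27025 genes in all. Right, the number of matches in the members by distance in bases from the annotated start, in bins of 25 bases. CHR letters were in 78.9% of the members against 16.0% of the tested genes, and most of their matches lay near the start.

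The libraries held 21716042 to 26740832 counts assigned to genes, so that a floor of 3 counts corresponded to 0.112 to 0.138 CPM, and every member was far above it. CPM are counts scaled to the same effective library size. Some fibroblast markers were high in all 9 libraries (collagen Col1a1, Col1a2, Fn1 and Vim), but Lum and Dcn, also on the fibroblast list, reached at most 1 and 3 counts. Summed FPKM (counts scaled by gene length and library total) of the 5 endothelial markers was 0.202 to 0.246 in iso-osmolar medium, 3.36 to 3.84 at 500 mOsm and 0.577 to 0.901 at 600 mOsm, and that of the 5 epithelial markers was 0.0317 to 0.237, 1.08 to 1.47 and 0.117 to 0.275. The endothelial rise was mostly Pecam1, with Emcn at 1 count or fewer. The epithelial rise was mostly Cdh1, with a mean of 0.784 FPKM under low-intensity stress beside 0.00306 in the control, while Krt5 was at 0. The 5 macrophage markers summed to 15.1 to 28.2 FPKM over all libraries. Ptprc had 7 counts or fewer, but Cd14 had 264 to 606 and Csf1r 210 to 381. Lyz2 had 78 to 486 counts and Cd68 had 21 to 47. From control to low to high intensity, mean FPKM went 3.92, 8.09, 9.73 for Lyz2 and 14.8, 7.48, 12 for Cd14. On the fibroblast list it went, in the same order, 8.57, 3.55, 5.39 for Col3a1 and 5.77, 3.55, 3.56 for Pdgfra. It went 22, 22.8, 23 for Thy1 and 49.2, 55.3, 59.4 for Pdgfrb. The muscle markers summed to at most 0.277 FPKM. Between 16452 and 16871 genes had a count in iso-osmolar medium, 18920 to 19222 at 500 mOsm and 17846 to 18031 at 600 mOsm. The mitochondrial genome gave 0.537% to 0.632% of counts in iso-osmolar medium, 0.394% to 0.491% at 500 mOsm and 0.320% to 0.403% at 600 mOsm. The part of these differences in the results on the members was not tested.

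In iso-osmolar medium the 46 genes together took 0.578% ± 0.0113 of all counts (SD, n = 3). The share was 0.671% ± 0.00741 at 500 mOsm and 0.704% ± 0.0185 at 600 mOsm (SD, n = 3 each), and the iso-osmolar libraries did not overlap with those of either intensity. Per length, as mean FPKM over the 9 libraries, the levels ran from 403 in Ube2s, an E2 enzyme of the APC/C, and 304.5 in Cdc20, an APC/C activator, to 2.26 in Cenpf and 2.03 in Kif20b. In these bulk samples fewer or more cells in G2 or mitosis and less or more RNA per cell cannot be told apart.

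Cells at 500 mOsm had higher transcript levels than iso-osmolar cells for 24 of the 46 genes and a lower level for 1, Ccnf, by edgeR's quasi-likelihood test with Benjamini-Hochberg adjustment over all 13082 genes (adjusted p under 0.05, the threshold used throughout). Of all genes tested, 28% were called in this comparison, 13.2% as higher and 14.8% as lower. At 600 mOsm 27 members were higher than in iso-osmolar cells and 0 were lower at adjusted p under 0.05, where 35.1% of all genes were called, 15.1% as higher and 20% as lower. Between the intensities 6 members were higher at 600 mOsm and 2 were lower, where 29.1% of all genes were called, 11.9% as higher and 17.2% as lower. As a median over the members, the log2 fold change was 0.27 at 500 mOsm and 0.38 at 600 mOsm, beside 0.01 for all genes in both comparisons, and it was 0.10 between the intensities, beside 0.01. The 2 stress comparisons share the iso-osmolar libraries. The changes were small in size: apart from Ccnf, only Nusap1 (log2 fold change 1.01 at 600 mOsm) passed an absolute log2 fold change of 1 with a call.

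**Figure D2:**
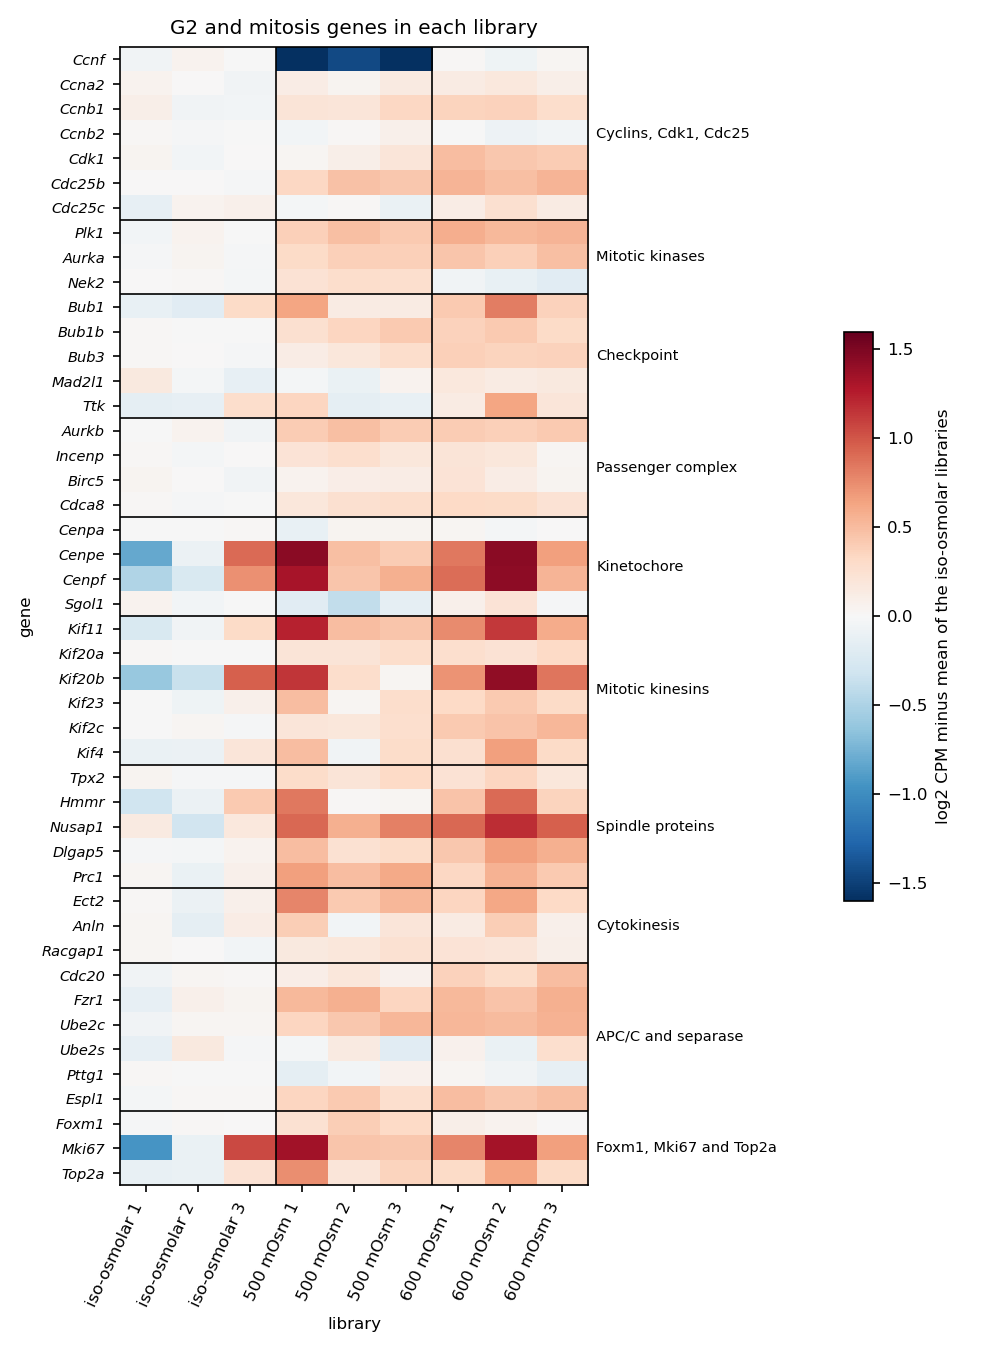
Each row is a G2 or mitosis gene and each column a library. Colour gives log2 CPM minus the mean log2 CPM of the 3 iso-osmolar libraries, with black lines between conditions and between roles. Most rows are red at 500 and 600 mOsm, Ccnf is blue in the 3 libraries at 500 mOsm alone, and Cenpe, Cenpf, Kif20b and Mki67 vary widely within each condition.

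Called as higher at both intensities, with no call between them, were 19 of the 46 members (41.3%), a pattern that 4.14% of all genes tested had. A further 14 members (30.4%, beside 49% of all genes) passed no test in the 3 comparisons. Bub1, Cenpf, Kif23 and Kif4 (8.7%, beside 5.18%) passed against iso-osmolar medium at 600 mOsm and not at 500 mOsm, with no call between the intensities. Cdk1 and Cdc20 (4.35%, beside 4.13%) passed as higher at 600 mOsm against both other conditions, and Bub3 and Kif2c (4.35%, beside 0.482%) as higher in all 3 comparisons. Nek2 and Foxm1 (4.35%, beside 4.59%) were higher at 500 mOsm and lower again at 600 than at 500 mOsm. Incenp (2.17%, beside 1.9%) was called at 500 mOsm against iso-osmolar medium and Sgol1 (2.17%, beside 2%) between the intensities. Ccnf (2.17%, beside 3.52%) was lower at 500 mOsm with a higher level at 600 than at 500 mOsm. The shares of the patterns of Cdk1 and Cdc20, Nek2 and Foxm1, Incenp, Sgol1 and Ccnf were near those of all genes. With the groups required not to overlap, 25 members stood above and 2 below iso-osmolar medium at 500 mOsm, where 40.9% of all genes did not overlap, 20.1% above and 20.8% below. The numbers at 600 mOsm were 29 above and 1 below, where 48.4% of all genes did not overlap, 23% above and 25.5% below. Between the intensities 13 stood above and 2 below, where 41.5% of all genes did not overlap, 19.2% above and 22.3% below.

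**Figure D3:**
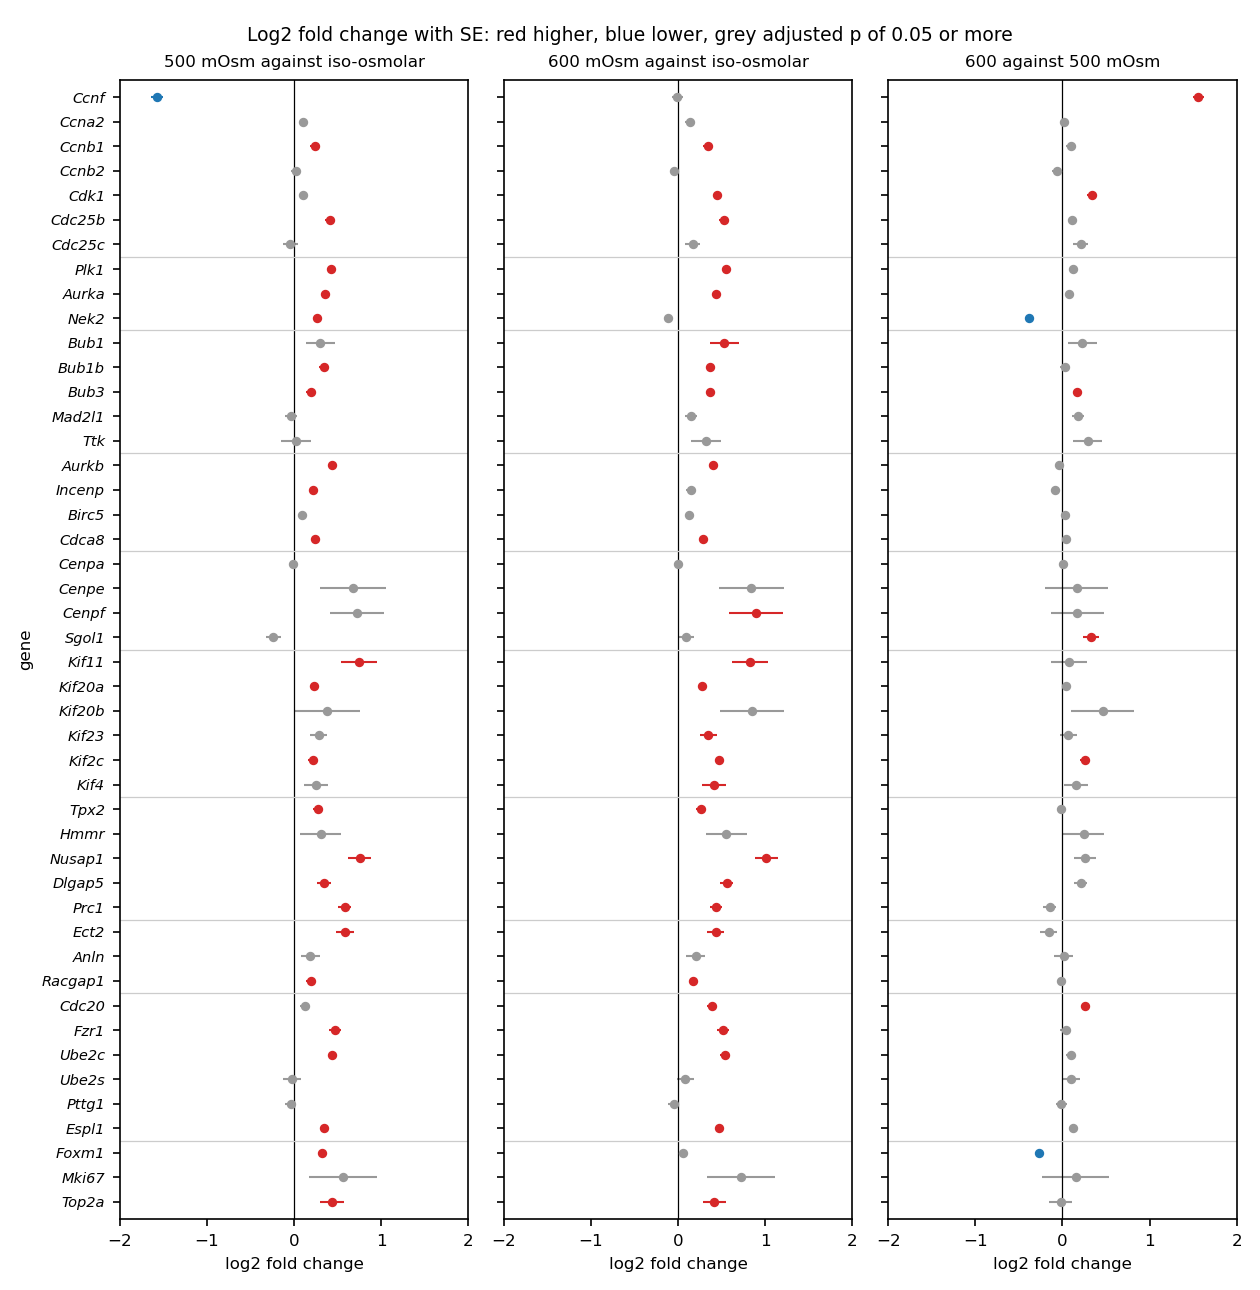
Points give the log2 fold change of each of the 46 genes and bars its standard error, in the 3 comparisons, with genes ordered by role. Red points passed the test as higher and blue as lower, and grey points did not pass. At 500 mOsm 24 genes are red and Ccnf is blue, at 600 mOsm 27 are red, and between the intensities 6 are red and 2 blue.

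Among the cyclins, Cdk1 and the Cdc25 phosphatases, 2 of 7 were higher and 1 lower at 500 mOsm, and 3 of 7 were higher at 600 mOsm. Ccnf (chr17:24223232-24251409, minus strand) encodes cyclin F, which does not bind Cdk1 but is the substrate adaptor of an SCF ubiquitin ligase. Its levels were 157, 169 and 162 CPM in the iso-osmolar libraries, 54.0, 59.9 and 50.1 CPM at 500 mOsm, and 164, 155 and 165 CPM at 600 mOsm. The 500 mOsm libraries lay far below all others and those at 600 mOsm overlapped with the iso-osmolar ones. The log2 fold change of Ccnf was -1.57 (standard error 0.065, adjusted p = 3.15e-09) at 500 mOsm, which is 33.7% of the iso-osmolar level, and -0.01 (standard error 0.062, adjusted p = 0.919) at 600 mOsm. It was the only member of the 46 called as lower against iso-osmolar medium.

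Cdk1 (chr10:69336635-69352938, minus strand), the kinase that starts mitosis and the most abundant gene of this role per length, measured 259, 243 and 253 CPM in iso-osmolar medium, 257, 269 and 287 CPM at 500 mOsm, and 355, 339 and 333 CPM at 600 mOsm. The first 2 conditions overlapped and all 3 libraries at 600 mOsm lay above them. The log2 fold changes of Cdk1 were 0.11 (standard error 0.051, adjusted p = 0.143) at 500 mOsm, 0.44 (standard error 0.051, adjusted p = 2.92e-05) at 600 mOsm and 0.34 (standard error 0.051, adjusted p = 0.000292) between them. Cdc25b, a phosphatase that activates Cdk1, read 72.6, 72.3 and 71.3 CPM in iso-osmolar medium, 90.4, 99.4 and 97.6 CPM at 500 mOsm, and 105, 100.3 and 105 CPM at 600 mOsm. Cdc25b thus rose at both intensities without overlap with the iso-osmolar libraries, by log2 fold changes of 0.41 (standard error 0.051, adjusted p = 5.03e-05) and 0.52 (standard error 0.051, adjusted p = 7.47e-06). Ccnb1, cyclin B1, rose to 118% and 126% of its iso-osmolar level (adjusted p = 0.00521 and 0.000524). Ccna2, Ccnb2 and Cdc25c, encoding cyclin A2, cyclin B2 and another Cdc25 phosphatase, were not called in any comparison, with mean levels at 500 and 600 mOsm between 95.7% and 116% of the group they were set against.

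The 3 genes listed here as mitotic kinases, Plk1, Aurka and Nek2, all rose at 500 mOsm. Among kinases placed under other roles, Aurkb rose there too, but Cdk1, Bub1 and Ttk were not called. Plk1, which acts in mitotic entry, centrosome maturation and cytokinesis, had levels of 181, 194 and 187 CPM in iso-osmolar medium, 243, 263 and 251 CPM at 500 mOsm, and 281, 268 and 274 CPM at 600 mOsm. The 3 conditions of Plk1 did not overlap. Its log2 fold changes from iso-osmolar medium were 0.43 (standard error 0.047, adjusted p = 1.89e-05) and 0.55 (standard error 0.047, adjusted p = 2.61e-06), and the step of 0.12 between the intensities did not pass the test (adjusted p = 0.0714). Aurka, the Aurora kinase of the spindle poles and the highest of the 3 per length, read 188, 195 and 187 CPM, then 234, 248 and 246 CPM at 500 mOsm, and 259, 248 and 264 CPM at 600 mOsm. Aurka was at 128% and 135% of the iso-osmolar level in the respective stress conditions (adjusted p = 6.59e-05 and 1.33e-05).

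Nek2, a kinase of centrosome separation, took another course. It measured 128, 129.5 and 125.5 CPM in iso-osmolar medium, 150.3, 155 and 154 CPM at 500 mOsm, and 123, 118 and 112.5 CPM at 600 mOsm, so that the libraries at 500 mOsm were the highest and those at 600 mOsm the lowest, without overlap. Against iso-osmolar medium the log2 fold change of Nek2 was 0.26 (standard error 0.047, adjusted p = 0.000953) at 500 mOsm and -0.12 (standard error 0.047, adjusted p = 0.0712) at 600 mOsm. From 500 to 600 mOsm it fell by 0.38 on the log2 scale (standard error 0.047, adjusted p = 6.48e-05).

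**Figure D4:**
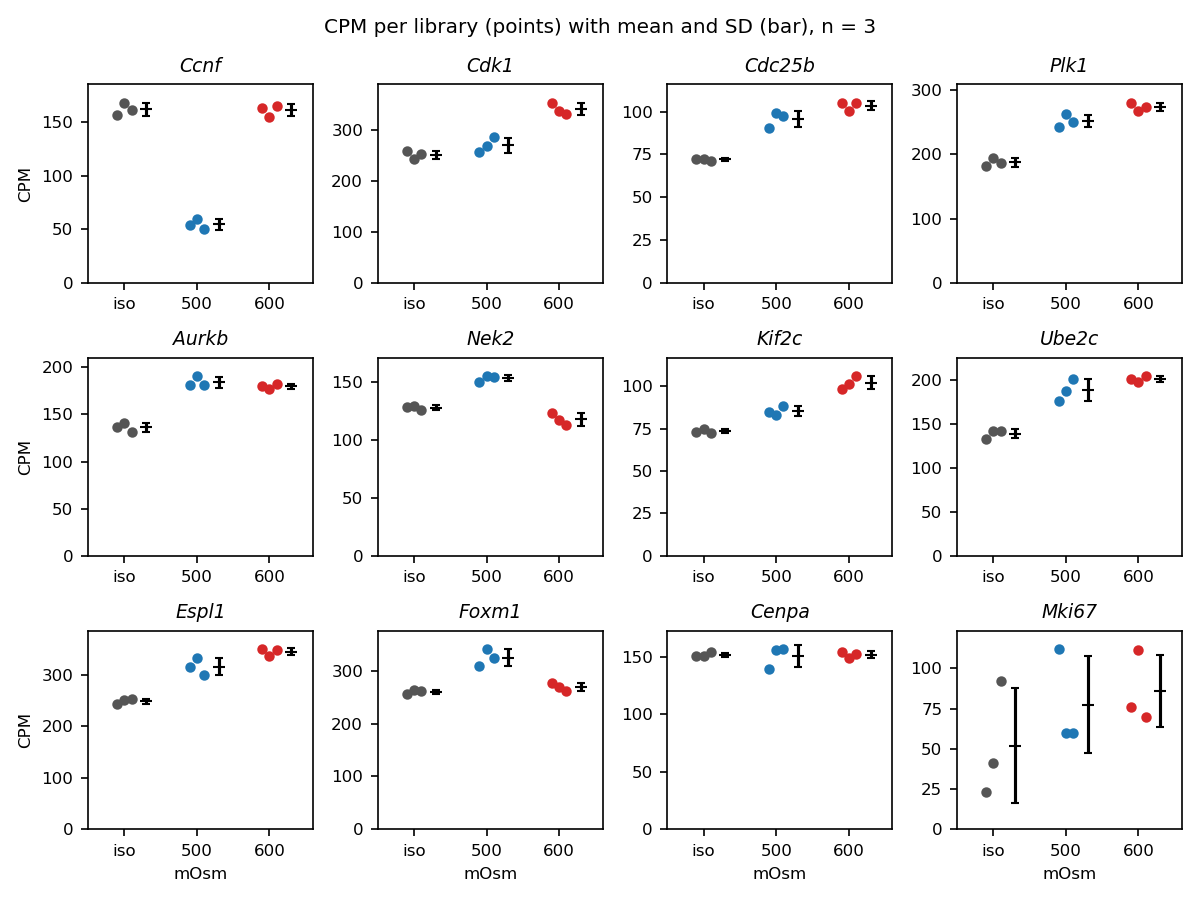
CPM of 12 members in each library, as points, with the mean and SD of each condition (n = 3) beside them, on axes that start at 0. Ccnf is low at 500 mOsm alone, Nek2 and Foxm1 are highest at 500 mOsm, Cdk1 is highest at 600 mOsm, the conditions of Cenpa overlap, and Mki67 spreads from 22.9 to 92.0 CPM within the iso-osmolar libraries.

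Of the 5 spindle assembly checkpoint genes, 2 passed as higher at 500 mOsm and 3 at 600 mOsm. Bub3, a subunit of the checkpoint complex and the most abundant of the 5 per length, read 154, 153 and 151 CPM in iso-osmolar medium, 165, 173 and 186 CPM at 500 mOsm, and 199, 195 and 197 CPM at 600 mOsm, with no overlap between conditions. Its log2 fold changes were 0.19 (standard error 0.049, adjusted p = 0.01) at 500 mOsm, 0.36 (standard error 0.049, adjusted p = 0.000113) at 600 mOsm and 0.17 (standard error 0.049, adjusted p = 0.0191) between them. Bub1b, which encodes the BubR1 protein that blocks the APC/C, rose to 127% and 129% of its iso-osmolar level (adjusted p = 0.000233 and 0.000141). Bub1, a checkpoint kinase of the kinetochore, passed at 600 mOsm, at 145% (adjusted p = 0.0275), and not at 500 mOsm or between the intensities (adjusted p = 0.219 and 0.335). Mad2l1 and Ttk were not called in any comparison.

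In the chromosomal passenger complex, which corrects chromosome attachments and guides cytokinesis, 3 of 4 subunits were higher at 500 mOsm and 2 of 4 at 600 mOsm. Its kinase, Aurkb, had 136, 141 and 131.5 CPM in iso-osmolar medium, 181, 191 and 181 CPM at 500 mOsm, and 180.3, 177 and 182 CPM at 600 mOsm. Both stress conditions lay above the iso-osmolar libraries and overlapped with each other. The log2 fold changes of Aurkb were 0.43 (standard error 0.046, adjusted p = 1.41e-05) and 0.40 (standard error 0.046, adjusted p = 3.23e-05). Cdca8, the borealin subunit, rose to 118% and 122% (adjusted p = 0.00148 and 0.000488), Incenp, the scaffold, was called at 500 mOsm (117%, adjusted p = 0.00639) with an adjusted p of 0.0513 at 600 mOsm, and Birc5, survivin, was at 107% and 109% (adjusted p = 0.218 and 0.0788).

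Of the centromere and kinetochore genes 0 of 4 were called at 500 mOsm. Cenpa, the histone variant that marks centromeres and the highest of these per length, measured 150.5, 151 and 154 CPM in iso-osmolar medium, 139.8, 156 and 157 CPM at 500 mOsm, and 154.5, 149 and 152.5 CPM at 600 mOsm. The 3 conditions of Cenpa overlapped, with log2 fold changes of -0.01 (standard error 0.051) and 0.00 (standard error 0.051) from iso-osmolar medium (adjusted p = 0.94 and 0.977). Sgol1, shugoshin, which protects cohesin at centromeres, read 26.7, 24.8 and 25.5 CPM, then 22.7, 19.6 and 23.1 CPM at 500 mOsm, and 27.2, 29.8 and 25.2 CPM at 600 mOsm. It lay lowest at 500 mOsm, and its log2 fold change passed the test only between the intensities, at 0.33 (standard error 0.086, adjusted p = 0.0124). Cenpf was called at 600 mOsm, and Cenpe, a kinesin of the kinetochore, was not. Both varied widely between libraries, as described further on.

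The mitotic kinesins, motor proteins that build and divide the spindle, had 3 of 6 members higher at 500 mOsm and 5 of 6 at 600 mOsm. Kif2c, which disassembles microtubules at centromeres, measured 73.3, 75.1 and 72.6 CPM in iso-osmolar medium, 84.5, 83.3 and 88.5 CPM at 500 mOsm, and 98.6, 101 and 106 CPM at 600 mOsm. The 3 conditions of Kif2c stood apart in the order of osmolarity. Its log2 fold changes were 0.21 (standard error 0.050, adjusted p = 0.00563) at 500 mOsm, 0.47 (standard error 0.050, adjusted p = 1.51e-05) at 600 mOsm and 0.26 (standard error 0.049, adjusted p = 0.00184) between them. Kif20a, a motor of cytokinesis and the highest kinesin of the 6 per length, had 131, 129 and 129 CPM, then 149.6, 149 and 157 CPM at 500 mOsm, and 157, 151.5 and 162 CPM at 600 mOsm, with 117% and 121% of the iso-osmolar level (adjusted p = 0.00192 and 0.000566). Kif11, the motor that separates spindle poles, was at 168% and 177% (adjusted p = 0.0178 and 0.00917). Kif23 and Kif4 passed at 600 mOsm, at 127% and 133% (adjusted p = 0.0167 and 0.0387), with no call between the intensities (adjusted p = 0.664 and 0.435), and Kif20b passed in no comparison.

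Of the spindle microtubule proteins 4 of 5 were higher at both intensities, and Hmmr was not called. Tpx2, which activates Aurka on spindle microtubules, read 178, 169 and 169 CPM in iso-osmolar medium, 211, 197.5 and 214 CPM at 500 mOsm, and 202.5, 218.5 and 195 CPM at 600 mOsm. Both stress conditions exceeded the iso-osmolar libraries, at 121% and 119% (adjusted p = 0.00189 and 0.00263). Nusap1, a microtubule-binding protein, gave the largest called rise of the 46, from 16.5, 12.0 and 16.7 CPM to 28.2, 22.0 and 26.1 CPM at 500 mOsm and 28.2, 34.0 and 28.9 CPM at 600 mOsm. Its log2 fold changes were 0.75 (standard error 0.132, adjusted p = 0.000771) and 1.01 (standard error 0.131, adjusted p = 8.34e-05). Prc1, which bundles the central spindle, was at 150% and 135% of the iso-osmolar level (adjusted p = 4.98e-05 and 0.000551), and Dlgap5, a spindle assembly protein, at 127% and 147% (adjusted p = 0.00423 and 0.000133).

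For cytokinesis 2 of 3 genes were higher at both intensities. Racgap1, a subunit of the centralspindlin complex, had 353, 349 and 337 CPM in iso-osmolar medium, 385, 391 and 409.9 CPM at 500 mOsm, and 403, 397 and 370.3 CPM at 600 mOsm. The stressed libraries lay above the iso-osmolar ones, with means at 114% and 112% of that level (adjusted p = 0.00825 and 0.0139). Ect2, the exchange factor that activates RhoA at the cleavage furrow, was at 150% and 135% (adjusted p = 0.000652 and 0.00537), and Anln, which encodes anillin, at 114% and 115% without a call.

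Genes of mitotic exit were split. Ube2c, an E2 enzyme of the APC/C, measured 133.5, 143 and 142 CPM in iso-osmolar medium, 177, 188 and 202 CPM at 500 mOsm, and 202, 198 and 205 CPM at 600 mOsm. Its log2 fold changes were 0.44 (standard error 0.054, adjusted p = 4.67e-05) and 0.53 (standard error 0.054, adjusted p = 1.03e-05). Espl1, separase, the protease that cuts cohesin at anaphase, read 244, 252 and 253 CPM, then 316, 334 and 301 CPM at 500 mOsm, and 351, 338 and 349 CPM at 600 mOsm. In Espl1, too, the libraries of the 3 conditions did not overlap, with log2 fold changes of 0.35 (standard error 0.047, adjusted p = 0.000116) and 0.47 (standard error 0.047, adjusted p = 9.55e-06).

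Fzr1, the Cdh1 activator of the APC/C, rose to 139% and 143% (adjusted p = 0.000179 and 0.000109). Cdc20, its counterpart in early mitosis, was at 109% at 500 mOsm without a call (adjusted p = 0.123) and at 131% at 600 mOsm (adjusted p = 0.000173), and differed between the intensities (log2 fold change 0.26, standard error 0.055, adjusted p = 0.00299). Ube2s, the most abundant of the 46 per length, varied within conditions, with 311, 377.5 and 335.5 CPM in iso-osmolar medium, 333, 375 and 301 CPM at 500 mOsm, and 357, 317 and 409 CPM at 600 mOsm. These overlapped and Ube2s was not called (adjusted p = 0.9, 0.564 and 0.48). Pttg1, securin, the inhibitor of separase, was not called either.

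Foxm1, the transcription factor of late cell cycle genes, passed as higher at 500 mOsm. It read 256, 263 and 262 CPM in iso-osmolar medium, 309, 342 and 326 CPM at 500 mOsm, and 277, 270.4 and 263 CPM at 600 mOsm. The 500 mOsm libraries stood above both other conditions. Foxm1 rose by 0.32 (log2 fold change, standard error 0.047, adjusted p = 0.000195) at 500 mOsm and was at 0.05 (standard error 0.047, adjusted p = 0.421) at 600 mOsm, and from 500 to 600 mOsm it fell by 0.27 (standard error 0.047, adjusted p = 0.000885). With GC content and length corrected, Foxm1 passed at 600 mOsm too (log2 fold change 0.12, edgeR adjusted p = 0.0383). Top2a, the topoisomerase that untangles sister chromatids, was at 135% and 133% of the iso-osmolar level (adjusted p = 0.0294 and 0.0316). Neither call of Top2a held with DESeq2 (adjusted p = 0.0776 and 0.0762) or with limma on log2 FPKM plus 1 (adjusted p = 0.0627 and 0.0677).

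A group of members varied together between libraries of the same condition, and some of their calls depended on this spread. Mki67, which encodes the proliferation marker Ki-67, read 22.9, 41.1 and 92.0 CPM in iso-osmolar medium, 112, 60.0 and 59.7 CPM at 500 mOsm, and 76.1, 111.5 and 70.0 CPM at 600 mOsm. Iso-osmolar library 3, 500 mOsm library 1 and 600 mOsm library 2 were the highest of their conditions. The same 3 libraries were the highest of their conditions for Cenpe, with 11.7, 19.4 and 38.7 CPM, then 56.3, 28.7 and 27.3 CPM, then 37.1, 56.3 and 32.4 CPM. They were also the highest for Kif20b, with 4.78, 5.69 and 14.2 CPM, then 16.1, 8.85 and 7.47 CPM, then 12.0, 19.5 and 13.2 CPM, and for Cenpf, with 11.1, 13.1 and 25.7 CPM, then 38.7, 21.2 and 22.9 CPM, then 28.7, 41.9 and 22.5 CPM. Standard errors of these 4 genes were 0.30 to 0.39 on the log2 scale, where the median over all genes was 0.10.

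The same libraries stood out in the members whose transcripts are poor in G and C. In the 13 members under 44% GC (Kif20b, Mad2l1, Ect2, Bub1, Sgol1, Hmmr, Nusap1, Kif11, Cenpe, Ttk, Cenpf, Prc1 and Top2a), a limit set after the values were seen, the median log2 deviation from the condition's mean was 0.27 in iso-osmolar library 3, 0.31 in 500 mOsm library 1 and 0.27 in 600 mOsm library 2, and -0.20 to -0.10 in the other 6 libraries. The medians of all 2453 tested genes under 44% GC were 0.02, 0.09 and 0.11 in these 3 libraries. For 500 and 600 mOsm these were the highest of the condition, but in iso-osmolar medium library 1 was higher, at 0.04. The 33 other members, which include Mki67 despite its spread, had medians between -0.034 and 0.023 in all 9 libraries. The pattern did not follow GC content gene by gene. Anln, Dlgap5, Kif23 and Kif4, which are not under 44% GC, were also highest in iso-osmolar library 3, 500 mOsm library 1 and 600 mOsm library 2. Mad2l1 and Sgol1, under 44% GC, were highest in iso-osmolar library 1 and 500 mOsm library 3 of their conditions. What set these libraries apart was not tested.

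Some calls of this group turned on single libraries. Those of Nusap1, Ect2, Prc1 and Dlgap5 against iso-osmolar medium held with any 1 library left out, although these genes were highest in the same 3 libraries. Without iso-osmolar library 3, the log2 fold changes of Mki67, Cenpe, Cenpf and Kif20b were 1.26, 1.25, 1.18 and 1.03 at 500 mOsm (adjusted p = 0.00918, 0.015, 0.00865 and 0.0297), and Mki67, Cenpe and Kif20b had 1.42, 1.42 and 1.50 at 600 mOsm (adjusted p = 0.00475, 0.00752 and 0.00345), so that genes not called with all libraries then passed. In the other direction, Kif11 at 500 mOsm did not pass without iso-osmolar library 1 or 2 or 500 mOsm library 1 (adjusted p = 0.0692, 0.0554 and 0.0759), nor did Top2a without these (adjusted p = 0.101, 0.0994 and 0.135). At 600 mOsm Top2a, Bub1 and Kif4 did not pass without iso-osmolar library 1 (adjusted p = 0.105, 0.0902 and 0.117), iso-osmolar library 2 (adjusted p = 0.102, 0.0982 and 0.115) or 600 mOsm library 2 (adjusted p = 0.111, 0.101 and 0.144). Cenpf at 600 mOsm was lost without iso-osmolar library 1 or 2, 500 mOsm library 3, or 600 mOsm library 1 or 2 (adjusted p = 0.145, 0.133, 0.0502, 0.0766 and 0.153), and Kif23 without iso-osmolar library 2 (adjusted p = 0.0577). Racgap1 at 600 mOsm was lost without iso-osmolar library 3 or 600 mOsm library 1 (adjusted p = 0.0663 and 0.0657), and Bub3 between the intensities without 500 mOsm library 1 or 2 or 600 mOsm library 1 (adjusted p = 0.084, 0.0585 and 0.0622). Without 500 mOsm library 2, Espl1 and Plk1 passed between the intensities (log2 fold change 0.17 and 0.16, adjusted p = 0.023 and 0.0471). With the 3 libraries highest in the low-GC members left out, 1 per condition and chosen after the values were seen, the calls at 500 mOsm were 24 higher and 1 lower, and those at 600 mOsm 30 higher, but not of the same genes. The share of all genes called in that fit is not given here, so these counts do not by themselves set the members apart. At 500 mOsm Mki67, Cenpe, Cenpf and Kif20b then passed, and Ccnb1, Incenp, Kif2c and Racgap1 did not (adjusted p = 0.0509, 0.052, 0.0682 and 0.0641). At 600 mOsm Tpx2 and Racgap1 did not pass (adjusted p = 0.0565 and 0.142), nor did Bub3 and Sgol1 between the intensities (adjusted p = 0.17 and 0.0628).

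Other genes of division were set beside the members from a list of 105, all of which were tested. Of these, 17 were higher (16.2%, beside 13.2% of all genes) and 8 lower (7.62%, beside 14.8%) at 500 mOsm. At 600 mOsm 45 were higher (42.9%, beside 15.1%) and 3 lower (2.86%, beside 20%), and between the intensities 16 were higher (15.2%, beside 11.9%) and 3 lower (2.86%, beside 17.2%). The shares that rose at 500 mOsm and between the intensities were near those of all genes. Their median log2 fold changes were 0.07, 0.19 and 0.10. Among 27 further spindle and cytokinesis genes 10 passed as higher at the low intensity and 17 at the high intensity, and of 36 further kinetochore and centromere genes 3 were higher and 4 lower at 500 mOsm, with 15 higher and 1 lower at 600 mOsm. The smallest p-values between the intensities belonged to Fbxo5, Ska2 and Fam83d among genes higher at 600 mOsm. Fbxo5, the Emi1 inhibitor of the APC/C, averaged 29.5 ± 1.43 CPM in iso-osmolar medium, 18.4 ± 2.07 CPM at 500 mOsm and 30.0 ± 0.398 CPM at 600 mOsm (SD, n = 3 each), a log2 fold change of 0.71 between the intensities (standard error 0.083, edgeR adjusted p = 4.18e-05). Ska2, a kinetochore subunit, and Fam83d, a spindle protein, had log2 fold changes of 0.78 and 0.41. Numa1, which anchors microtubules at spindle poles, Cit, citron kinase of cytokinesis, and Lin54, the DNA-binding subunit of MuvB, were the 3 called as lower, by log2 fold changes of -0.47, -0.23 and -0.34.

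The genes of the preceding phases, 54 genes of the G1/S transition and DNA replication, had 3 higher and 10 lower members at 500 mOsm (5.56% and 18.5%, beside 13.2% and 14.8% of all genes), 9 and 7 at 600 mOsm (16.7% and 13%, beside 15.1% and 20%), and 14 and 3 between the intensities (25.9% and 5.56%, beside 11.9% and 17.2%). Their median log2 fold changes were -0.04, 0.04 and 0.11. The difference between the lists was not tested, since the lists were chosen with results of these data known.

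**Figure D5:**
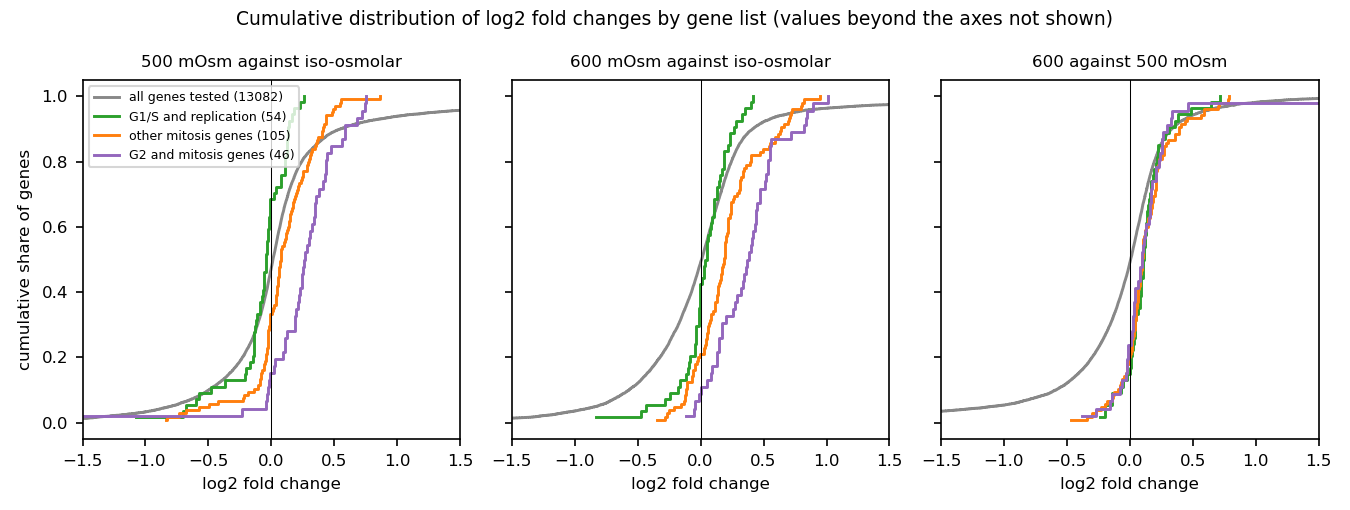
Cumulative share of genes (vertical axis) against log2 fold change (horizontal axis) for the 46 G2 and mitosis genes, 105 other mitosis genes, 54 G1/S and replication genes and all 13082 tested genes, in the 3 comparisons. The line of the 46 genes lies to the right of all genes at 500 and 600 mOsm, with medians of 0.27 and 0.38, and the 3 lists lie close together between the intensities, with medians of 0.10, 0.10 and 0.11.

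Some counts may hold reads of other genes. Of the members, 13 overlap another gene by the deposited positions, 12 of them one on the opposite strand, and whether counting used the strand is not given in the sources used here. Transcripts of overlapping genes shared 979 bases in Kif20a and Cdc23, 684 in Kif4 and Pdzd11, 623 in Cdc25c and Gm3550, and 431 in Ccna2 and Exosc9. Prc1 had a match of 670 bases to a transcript of Rccd1, which does not overlap it by the deposited positions, and Bub3 lies inside Fgfr2. Ccnb1 shares 1287 bases at 99.2% identity with Ccnb1-ps and 1294 bases with Gm12856, pseudogenes with at most 0 and 17 counts in a library. The values of these genes are therefore uncertain to that extent.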

How the data were processed

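RNA-seq data came from 9 libraries (3 conditions, n = 3). Per the labels and the study's methods, mRNA was enriched on poly-T beads, fragmented, sequenced in pairs and aligned with STAR to mm10, after base calling with CASAVA 1.8. The counting tool is not given in the sources used here. The authors deposited raw counts per gene, FPKM made from these counts and a gene length, and mean FPKM per group, together with their own fold changes and p-values, which were not used. The table held 0 columns of other samples.

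Genes were filtered with edgeR's filterByExpr, scaled by TMM and fitted in 1 model over the 9 libraries (R 4.3.3, edgeR 4.0.16, quasi-likelihood test, Benjamini-Hochberg adjustment). The study used DESeq2, run here (1.42.0) as an alternative, as was limma 3.58.1 on log2 FPKM plus 1 or 0.1. Scripts were tested on simulated data. Precision is limited by n = 3 and a common biological coefficient of variation of 0.0756. Within-group correlations of log CPM were 0.9956 to 0.997.

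The 46 genes, the lists and the motifs were chosen with earlier results of these data known. Members with the 3 smallest p-values per direction and comparison, and the most abundant per role by FPKM, are given in every library. Of the other mitosis genes, those with the 3 smallest p-values per direction between the intensities are named. Wee1, Hjurp, Mis12 and Nsl1 of that list, and the G1/S and replication genes, were named after their values were seen, for a course like that of Ccnf. Other members named with library values were added for their spread, size of change or pattern. Replicate numbers are shared by the labels, and the fit has no block.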

Additional observations from a re-analysis of the deposited data

How the results depend on the processing

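Medians over the 46 genes stayed above 0 under all alternatives, and more members were higher than lower in each comparison, except at 500 mOsm with a minimum absolute log2 fold change of 1, which left Ccnf as lower. With 1 library left out at a time, 22 to 28 members were higher, 1 to 2 lower and 23 to 29 different at 500 mOsm (median log2 fold change 0.228 to 0.288), 22 to 30 were higher and 0 lower at 600 mOsm (0.326 to 0.396), and 6 to 7 were higher, 2 lower and 8 to 9 different between the intensities (0.0522 to 0.111, main value 0.0958, with 0.0522 without 500 mOsm library 2 and 0.0534 without 600 mOsm library 2). A minimum absolute log2 fold change of 1 left 1 different and 0 higher at 500 mOsm, 1 different and 1 higher at 600 mOsm, and 1 different, 1 higher and 0 lower between the intensities. Without a filter 34 members differed at 500 mOsm, 2 of them lower, where 20.5% of all genes were called (28% in the main fit), 9.54% as lower. Between the intensities 14 then differed, 12 of them higher. The share of all genes called moved with the setting, so counts of members given here without it do not by themselves set the members apart. At 600 mOsm 1 member, Nek2, was lower with library size alone and with limma on log2 FPKM plus 1 (median 0.341) or plus 0.1. With GC content and length corrected, added after the data were seen, the median at 600 mOsm was 0.422, and between the intensities 18 members differed, 14 higher and 4 lower (median 0.127), while over all genes 22.6% were higher and 15.0% lower, against 11.9% and 17.2%. For every such change the cause was not tested.

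DESeq2 called 25, 25 and 9 members in the 3 comparisons, given here without the share of all genes it called. Deviations from the condition's mean had a mean r of -0.134 over 9 pairs of samples with the same replicate number (from -0.369 to 0.277). The mean of 0.0673 over 18 pairs of unlike number is no independent reference, since deviations within a condition sum to 0. This check thus cannot settle whether the numbers mark pairs or shared batches. A replicate block gave 23, 23 and 8 calls with medians of 0.266, 0.377 and 0.0967, again without the share of all genes. With the block Kif11 and Top2a at 500 mOsm and Top2a, Bub1, Kif4 and Cenpf at 600 mOsm did not pass, and Cenpf did not with DESeq2 (adjusted p = 0.108). With GC and length corrected Cdk1 passed at 500 mOsm (log2 fold change 0.138, adjusted p = 0.0279).

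Reversals were limited to values not called. For Cenpa the log2 fold change was 0.00602 at 500 mOsm and -0.00277 between the intensities with at least 10 counts in every library, -0.00733 between the intensities and -0.0175 at 600 mOsm with library size alone, -0.00514 and -0.0173 with limma plus 1, and -0.00516 and -0.0174 with limma plus 0.1. Without a filter Racgap1 was at 1.48e-05 and Tpx2 at 0.00664 between the intensities. GC and length correction gave Cenpa 0.0133 and Ube2s 0.028 at 500 mOsm, Ccnf 0.0478 at 600 mOsm, and Racgap1 0.0751 and Tpx2 0.0953 between the intensities. Without the 3 libraries highest in the low-GC members, Cenpa was at 0.0549 and -0.0279 and Ccnf at 0.0171. Over single libraries left out, Cenpa ranged from -0.042 to 0.0449 at 500 mOsm, -0.00922 to 0.0168 at 600 mOsm and -0.0428 to 0.042 between the intensities, Ube2s from -0.12 to 0.0535 and -0.018 to 0.167 at 500 and 600 mOsm, Kif20b from -0.0176 to 1.03 at 500 mOsm, Ccnf from -0.0355 to 0.0192 at 600 mOsm, and, between the intensities, Aurkb from -0.0473 to 0.00205, Cenpe from -0.103 to 0.58, Cenpf from -0.101 to 0.491, Tpx2 from -0.0568 to 0.0232, Racgap1 from -0.0408 to 0.0174 and Mki67 from -0.0758 to 0.519.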

Other observations

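The course of Ccnf was a fall from iso-osmolar cells to 500 mOsm and a higher level at 600 than at 500 mOsm. It was called in 1 of the 46 genes and in 696 of all 13082 genes tested. With no call at 600 mOsm against iso-osmolar medium, as in Ccnf, it was held by 2.17% of the members and 3.52% of all genes, so it does not mark the members. Among 105 other mitosis genes 6 had the course of a fall and a higher level, and among 54 G1/S and replication genes 5. The share of the other mitosis genes was near that of all genes, so the course does not mark them either. That of the G1/S and replication genes was higher but rests on 5 genes. These genes were singled out after their values were seen. In Wee1, the kinase that holds Cdk1 inactive, the mean was 26.9 ± 3.17 CPM in iso-osmolar medium, 15.2 ± 3.25 CPM at 500 mOsm and 26.1 ± 3.57 CPM at 600 mOsm (SD, n = 3 each), with log2 fold changes of -0.83 (edgeR adjusted p = 0.000997) and 0.79 between the intensities (adjusted p = 0.0017). Hjurp, the chaperone that loads Cenpa, had 279 ± 9.98, 167.5 ± 7.27 and 219.5 ± 13.1 CPM in the same order, where the conditions of Cenpa itself overlapped. Mis12 and Nsl1, subunits of 1 kinetochore complex, fell at 500 mOsm by 0.84 and 0.50 on the log2 scale, and Fbxo5 and Ska2 complete the 6.

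Ccne1, cyclin E1 of the G1/S transition, averaged 36.2 ± 0.594 CPM in iso-osmolar medium, 17.1 ± 0.172 CPM at 500 mOsm and 26.7 ± 1.07 CPM at 600 mOsm (SD, n = 3 each), a log2 fold change of -1.08 at 500 mOsm (edgeR adjusted p = 8.89e-08). Ccne2, Cdc7, Gins3 and Mcm7 were the 4 others of that list.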
